A study of Mus musculus with 3 samples.

Results

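The cells described here were 231 barcodes of a lymphatic endothelial kind that carried the scavenger receptor gene Marco or the mannose receptor gene Mrc1. They came from single-cell RNA-seq of mouse intestinal organoids, in which a barcode marks 1 droplet, usually with 1 cell, and a unique molecular identifier (UMI) marks 1 captured RNA molecule. A barcode was taken as a member when its string was listed in all 3 libraries of the series and when, in the counts of the WT library, at most 20% of its UMIs were mitochondrial, Marco and Mrc1 together had at least 2 UMIs, Lyve1 had at least 1 UMI and both Ackr4 and Madcam1 had 0. The 231 members were 7.23% of the 3195 shared barcode strings and 2.02% of the 11411 barcodes of the WT library. Since measured counts of Marco, Mrc1, Lyve1, Ackr4 and Madcam1 chose the members, the levels of these 5 genes are a description and support nothing.

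The study deleted Apc, a brake on Wnt signalling, alone or with Lef1, a transcription factor of that pathway, and sequenced 1 library of small intestinal organoids per genotype. The groups were WT, LApc (Lgr5-CreERT2;Apc fl/fl) and LApcL, which carried Lef1 fl/fl beside those alleles, all from C57BL/6 mice of 7 to 8 weeks that were given 2 doses of 2 mg tamoxifen. The WT and LApcL mice were analysed 21 days and the LApc mice 29 days after tamoxifen, and the organoids were at passage 3 and day 6 of culture. CreERT2 under Lgr5 acts in intestinal epithelial stem cells and their progeny, so it says nothing about endothelial cells. With 1 library per genotype there was no replicate, no test was made, and the intervals given are 95% intervals of counting error alone.

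Lymphatic endothelial cells line the vessels and sinuses that drain tissue fluid, and their identity is held by the transcription factor Prox1. In mouse lymph nodes the lymphatic endothelium is known to differ by place: cells over the subcapsular sinus ceiling carry the chemokine scavenger Ackr4, cells of its floor carry the adhesion molecule Madcam1, and cells of the medullary sinuses carry Marco with Mrc1 and the hyaluronan receptor Lyve1. Marco and Mrc1 bind bacterial and modified self ligands and are also well-known genes of macrophages, which is why the identity of the members was checked first. The labels of this series name intestinal organoids and no lymph node, and where the cells came from was not tested.

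A barcode string is the sequence that shows the sharing, since each of the strings below stood in the WT, LApc and LApcL libraries alike. The 3 members with most Marco UMIs and a pair of members just inside the limit of 2 UMIs are shown, followed by a pair of barcodes just outside it, each 5′ to 3′ and with no base set apart.

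Marco-rich member 1: ctgcgagcagccggtt
Marco-rich member 2: ccaccatgttaggccc
Marco-rich member 3: gatcacacaaccgacc
Just inside 1: tatatcccattcttca
Just inside 2: cgggactaggacggag
Just outside 1: gctacaaagggccaat
Just outside 2: gcatctccaagtgata

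Marco-rich member 1 held 82 Marco UMIs in the WT library, 54 in LApc and 54 in LApcL. Marco-rich member 2 held 71, 34 and 42, and Marco-rich member 3 held 67, 38 and 38. The high counts thus came back under the same string in every library. Just inside 1 had no Marco UMI in any library, with 2, 2 and 4 Mrc1 UMIs and 23, 8 and 17 Lyve1 UMIs. Just inside 2 likewise had no Marco UMI, with 2, 2 and 1 Mrc1 UMIs. Just outside 1 and just outside 2 had 1 Marco UMI each in WT and none in LApc or LApcL.

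The libraries held 87185429 (WT), 118867221 (LApc) and 112057783 (LApcL) UMIs. Pairs of libraries shared between 3214 and 3280 barcode strings, and nearly all of these, 3195, were in all 3. The members did not show the epithelial marker of the labelled tissue. Epcam, an epithelial surface protein gene, had 2 UMIs in all members together, or 2.49 CPM (UMIs of a gene per 1000000 UMIs of the group, the unit of level used below), against 1160 CPM in the 3072 WT barcodes that were not shared and had at most 20% mitochondrial UMIs.

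In the LApc library the barcodes that were not shared held Xist, the RNA of the inactive X chromosome, at 1277 CPM and the Y-linked gene Ddx3y at 0.0311 CPM. At the members' barcodes in that same library Xist had 0 UMIs, with an exact Poisson upper limit of 6.73 CPM, and Ddx3y stood at 233 CPM (195 to 278). The members' counts in the LApc library were therefore unlike those of its own epithelial barcodes in sex-linked genes, and close to the members' counts in WT, with Xist at 0 UMIs and Ddx3y at 216 CPM. In the WT and LApcL libraries the barcodes that were not shared also held Y-linked genes and little Xist, at 1.09 CPM and 0.756 CPM, but at other levels than the members. There Ddx3y stood at 48.6 CPM and 47.4 CPM, under the members' 216 CPM and 230 CPM. The Y-linked gene Eif2s3y stood at 69.0 CPM and 64.1 CPM, over the members' 28.6 CPM and 23.7 CPM. How the strings came to be shared was not tested. Since the 3 libraries hold counts of 1 set of cells, members were counted once, in WT, and the LApc and LApcL counts are used only as recounts.

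The rule removed barcodes in steps. Of the 3195 shared strings, 3145 had at most 20% mitochondrial UMIs, 263 of these had at least 2 UMIs of Marco and Mrc1, 256 of these had Lyve1, 244 lacked Ackr4 and 231 also lacked Madcam1. Members had 730 to 8492 UMIs, with a median of 3394, and 402 to 2999 genes, with a median of 1562. Their mitochondrial share had a median of 5.62%. The members made up 7.35% of the shared barcodes that passed the mitochondrial limit (Clopper-Pearson interval 6.46 to 8.31).

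Marco carried most of the signal. It had a lowest count of 0, a median of 14 and a highest count of 82 UMIs per member, whereas Mrc1 had 0, 1 and 8 and Lyve1 had 1, 10 and 53. Both Marco and Mrc1 were seen in 124 members, Marco alone in 74 and Mrc1 alone in 33. By the sum of Marco and Mrc1, 48 members had 2 or 3 UMIs, 45 had 4 to 9 and 138 had 10 or more.

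**Figure D1:**
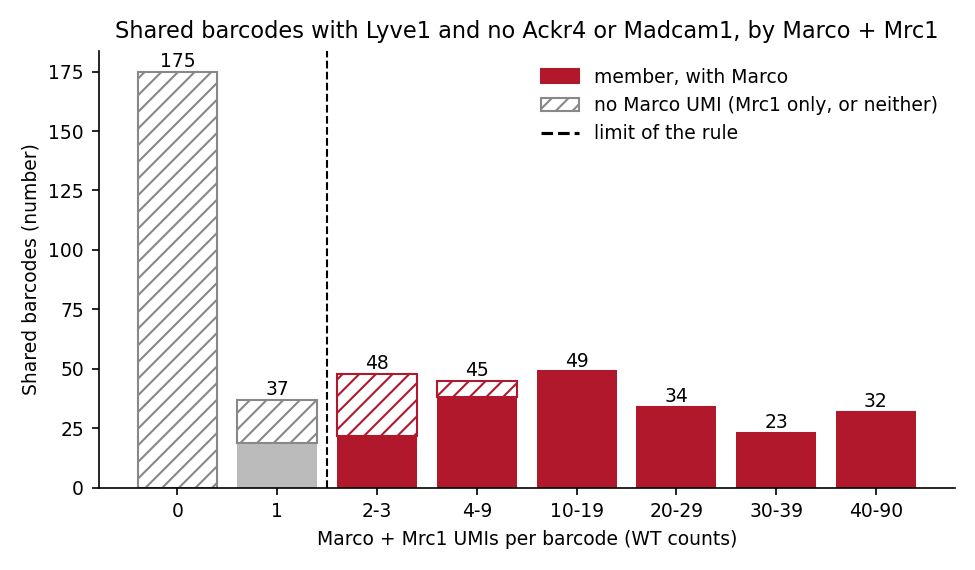
Number of shared WT barcodes (y axis) by their summed Marco and Mrc1 UMIs (x axis), among barcodes with Lyve1 and without Ackr4 or Madcam1. Filled bars are barcodes with Marco, red to the right of the dashed limit (members) and grey to the left; hatched bars hold no Marco. No gap sets the 48 members with 2 or 3 UMIs apart from the 37 barcodes with 1 UMI.

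The limit cut through a continuous range. Just inside it, 23 members had exactly 2 UMIs of Marco and Mrc1. Just outside it, 37 barcodes met every other criterion with 1 UMI and 175 with 0 UMIs. The 37 barcodes with 1 UMI held Reln, which encodes a large secreted glycoprotein made by lymphatic vessels, at 213 CPM and Prox1 at 1174 CPM, values near the 306 CPM and 1232 CPM of the members with 2 or 3 UMIs. They differed in Glycam1, which encodes a mucin of high endothelial venules, with 2330 CPM against 64.4 CPM. In the 175 barcodes with 0 UMIs, Reln stood at 45.5 CPM, Prox1 at 538 CPM and Glycam1 at 14993 CPM. Among barcodes that failed 1 criterion only, 6 lacked Lyve1, 12 held Ackr4, 13 held Madcam1 and 4 were over the mitochondrial limit. Of these, the 13 with Madcam1 were rich in Marco, with a median of 29 UMIs of Marco and Mrc1, while the 12 with Ackr4 had a median of 4.

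The endothelial and lymphatic label held against the genes that the rule did not use. Of the 9 pan-endothelial genes, each member had at least 1 detected, with a median of 6 and a highest number of 9. Of the 7 lymphatic genes outside the rule (Prox1, Flt4, Pdpn, Reln, Mmrn1, Ccl21a and Nrp2), 230 of 231 members had at least 1, 221 (95.7%) had at least 2 and 182 (78.8%) had at least 3. Of the 2307 shared barcodes that were not lymphatic, 53.2% had at least 1, so a single gene of this list, which includes Ccl21a, separated little. These barcodes were defined by lacking several of the same genes, and larger numbers of genes are not compared with them. Flt4, which defined no group, was found in 72.3% of members and 5.50% of those 2307 barcodes. Prox1 was found in 90.9% of members (86.4 to 94.3) at a median of 3 UMIs, against 7.28% of the barcodes that were not lymphatic, which were defined in part by lacking it. After each barcode was thinned to 1000 UMIs, which left out 5 members, the shares were 65.0% and 4.34%.

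Macrophage genes were close to absent. The 17 macrophage markers summed to 57 UMIs, or 70.9 CPM, in the members, against 48.8 CPM in the other lymphatic and 48.0 CPM in the non-lymphatic shared barcodes. Of the 57 UMIs, 21 were Mertk, a receptor for dying cells that other cell types also use. The defining genes Ptprc, Csf1r and Adgre1 had 1 UMI each, C1qa had 6, Tyrobp had 6, and Fcgr1, Siglec1 and Itgam had 0. In all, 12 members held any UMI of Ptprc, Csf1r, Adgre1, C1qa, C1qb or C1qc.

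Markers of lymphocytes, mural cells, epithelium, fibroblasts and cycling cells were also low in the members, whereas capillary markers were not. The 7 lymphocyte markers summed to 6.22 CPM with 5 of them at 0, the 3 mural markers to 6.22 CPM with Acta2 and Des at 0, and the 7 epithelial markers to 19.9 CPM with Krt18, Krt19 and Cdh1 at 0. The 6 fibroblast markers summed to 80.8 CPM, of which Dcn, a matrix proteoglycan gene, gave 62 of 65 UMIs while Pdgfrb, Col1a1 and Col1a2 were at 0. The 5 cycling markers gave 9 UMIs, with Birc5, Pclaf and Cdk1 at 0, or 11.2 CPM, in 3.46% of members. In the other lymphatic barcodes they gave 96.2 CPM in 4.61% of barcodes, with up to 15 Top2a UMIs in 1 of them, so a few barcodes held much of that level. Arterial markers summed to 137 CPM with Gja5 and Gkn3 at 0, and capillary markers to 1235 CPM, most of it Plvap, a diaphragm protein gene that fenestrated and lymphatic endothelium both use.

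For comparison, 607 other lymphatic barcodes were taken among the shared ones: no members, at most 20% mitochondrial UMIs, and UMIs of at least 2 of Prox1, Mmrn1, Reln, Pdpn and Lyve1. They were split into 290 with Ackr4 and no Madcam1, 90 with Madcam1 and no Ackr4, and 227 remaining ones. Their median depths were 3236, 4279 and 2426 UMIs, against 3394 in the members. Levels of the 5 genes that chose this group are given as a description, with no ratio to the members. A further 2307 shared barcodes met neither definition and had a median of 1874 UMIs.

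Among the genes of the rule, Marco (chr1:120474538-120505024, minus strand, GRCm38) stood at 5079 CPM (4924 to 5237) in the members, 109 CPM in the Ackr4-positive, 842 CPM in the Madcam1-positive, 36.5 CPM in the remaining lymphatic and 19.6 CPM in the non-lymphatic shared barcodes. A Marco UMI was found in 3.94% of the non-lymphatic shared barcodes, or 1.70% after thinning, and serves here as the background share. Mrc1 (chr2:14229392-14332057, plus strand) stood at 471 CPM in the members and between 1.88 and 62.7 CPM in the other 4 groups. Lyve1 (chr7:110850607-110863239, minus strand) stood at 3645 CPM, 402 CPM, 1388 CPM, 1195 CPM and 33.2 CPM in the same order.

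Reln (chr5:21884454-22344702, minus strand), the fourth marker given for these cells, was not used by the rule. It stood at 256 CPM (222 to 294) in the members, 26.9 CPM in the Ackr4-positive, 25.1 CPM in the Madcam1-positive, 101 CPM in the remaining lymphatic and 1.32 CPM in the non-lymphatic barcodes. A Reln UMI was found in 101 members, or 43.7%, so most single members showed none, with a highest count of 8. Prox1 (chr1:190118035-190170714, minus strand) stood at 1450 CPM (1368 to 1535) in the members, 827 CPM, 1073 CPM, 1121 CPM and 60.5 CPM in the same order. Both genes helped to choose the lymphatic groups, and their levels are given as a description.

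**Figure D2:**
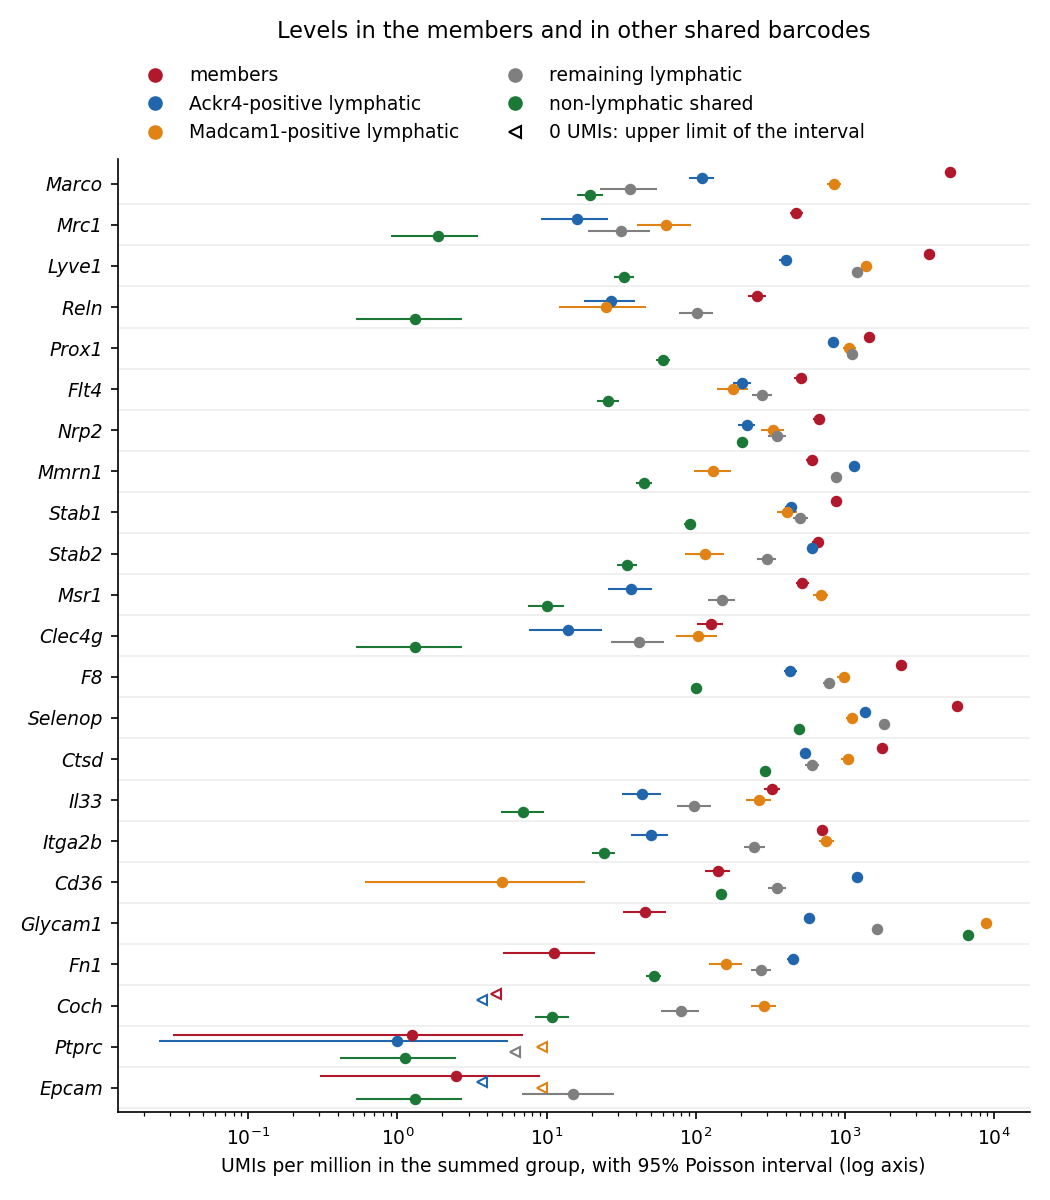
Levels of 23 genes (rows) in the members and 4 groups of other shared WT barcodes (colours), in CPM of the summed group on a log axis, with 95% Poisson intervals as lines; open triangles mark genes with 0 UMIs at their upper limit. Marco, Mrc1, Lyve1, Reln, F8 and Selenop are highest in the members, and Glycam1, Fn1 and Coch lowest or near it.

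Against the other lymphatic barcodes, 211 of 3672 genes at 50 CPM or more in 1 of the groups were at least 2-fold higher in the members and 228 at least 2-fold lower on the scale of log2 of CPM + 1. These were 5.75% and 6.21% of the genes compared, and the median log2 ratio over all of them was -0.0042. The direction and size of single genes are given below as CPM ratios, and a ratio describes 2 sums of barcodes from 1 library. A gene under 50 CPM in 1 of the groups was compared only because it was high in the other, so its direction was fixed by the minimum, and the counts and medians of the lists include such genes, for example Clec4g and Cd274 among the higher ones and Ccl20, Coch, Glycam1, Ackr3, Lamb1, Fn1 and Gja4 among the lower ones.

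Of the 1863 genes at 100 CPM or more in 1 of the groups, those with the highest ratios outside the rule were led by Meg3, which is described below. Clec1b, which encodes a C-type lectin receptor best known from platelets, stood at 122 CPM against 16.9 CPM, a ratio of 7.19 (4.82 to 10.96), and was found in 64 members. Pcdh15, a protocadherin gene known from hair cells, was 5.86-fold (4.01 to 8.72) higher. Plxdc2, a plexin-domain receptor gene, was 6.09-fold higher and was found in 100 members. Reln also ranked among the 15 highest, but it had helped to choose the other lymphatic barcodes, so its ratio to them is not given.

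Selenop, which encodes the selenium carrier of plasma, was the most abundant gene named, at 5636 CPM against 1447 CPM, 3.90-fold (3.72 to 4.08), with UMIs in 224 of 231 members and a median of 17. Lepr, the leptin receptor gene, was 4.86-fold (3.93 to 6.04) higher with UMIs in 129 members. Mt2, a metallothionein gene that binds zinc, was 4.49-fold (3.92 to 5.15), Cyp4b1, a cytochrome P450 gene, 3.94-fold (3.49 to 4.45), and Hilpda, a lipid droplet protein gene, 5.17-fold (3.97 to 6.78) higher. Plek, Pld5, Gmfg and Tpbgl completed the list, at 4.70-fold, 4.60-fold, 4.19-fold and 3.98-fold.

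Meg3, a long noncoding RNA, had the highest ratio, 9.58 (6.63 to 14.15), but it did not describe the members at large. Its 142 UMIs lay in 10 members, and 1 of them held 49. The other lymphatic barcodes had Meg3 in 4 barcodes.

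The lowest ratios lay farther from 1 than the highest, and several rest on few UMIs in the members. Igfbp5, an insulin-like growth factor binding protein gene, had 1 UMI in the members against 141.5 CPM, a ratio of 113.8 (20.26 to 4511) in the other direction, although it lay in 32 of the 607 other lymphatic barcodes with up to 53 UMIs in 1 of them. Fn1, the fibronectin gene, stood at 11.2 CPM against 340 CPM, 30.4-fold lower (15.9 to 66.7), with UMIs in 6 members and in 280 of the other lymphatic barcodes. Prss23, a secreted serine protease gene, was 60.4-fold lower (25.8 to 186), Bgn, the biglycan gene, 44.9-fold lower (17.4 to 165) and Cdh13, a cadherin gene, 54.3-fold lower (14.9 to 451) with 2 UMIs in the members. Pglyrp1, a peptidoglycan-binding protein gene, was 63.7-fold lower (17.5 to 528), also with 2 UMIs. Glycam1 was 55.2-fold lower (40.0 to 78.4), but it was found in 35 members and 181 of the other lymphatic barcodes, with 400 UMIs in 1 of these and 3528 of 5092 UMIs in the Madcam1-positive ones. S100a6 was 20.7-fold and Klrb1f 19.6-fold lower.

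**Figure D3:**
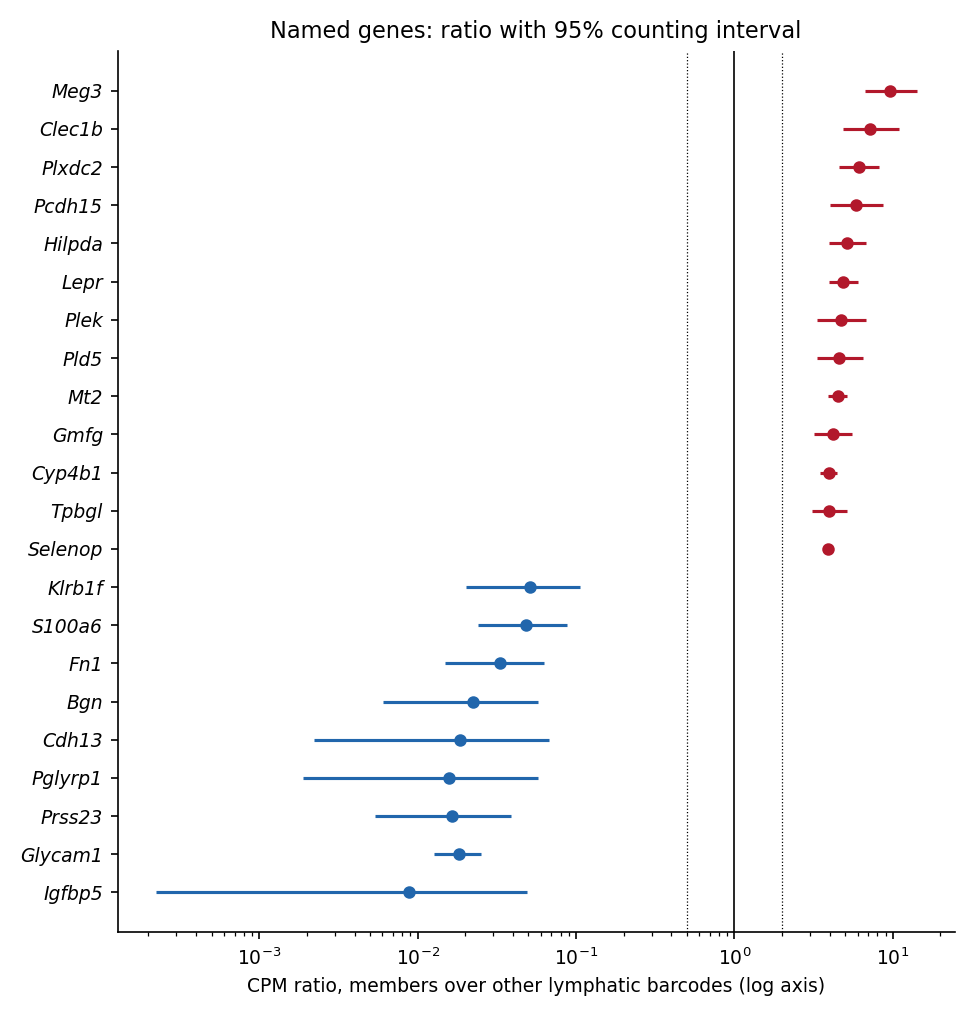
CPM ratio of the members over the other lymphatic barcodes (x axis, log scale) for 13 of the 15 highest and 9 of the 10 lowest genes outside the rule, with 95% counting intervals as lines. Red points lie above the dotted 2-fold mark and blue points below the dotted mark for 2-fold lower; the lower group, from Klrb1f to Igfbp5, lies farther from 1 than the higher group, and Igfbp5 has the widest interval because it rests on 1 UMI in the members.

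The list of scavenger and lectin receptors, which take up particles and glycoproteins, had a median ratio above that of all genes. Leaving out Marco and Mrc1, 12 of the list's 23 genes were at 50 CPM or more, with a median log2 ratio of 0.66 (median of the gene intervals 0.35 to 1.03) beside -0.0042 over all genes. At least 2-fold higher were Msr1 (the class A scavenger receptor), Scarb2, Clec4g (a sinusoidal lectin) and Cxcl16 (a scavenger receptor that is also a chemokine), 4 of 12 genes. Clec4g and Scarb1 were under 50 CPM in the other lymphatic barcodes and were compared only through the members. Their direction was fixed by the minimum, and the median includes them. Msr1 stood at 518 CPM against 200 CPM, 2.59-fold (2.25 to 2.98), with a median of 1 UMI per member. Clec4g was 3.15-fold (2.33 to 4.28) higher and found in 66 members. Stab1 and Stab2, receptors that clear hyaluronan and modified proteins, were 1.94-fold (1.75 to 2.14) and 1.59-fold (1.42 to 1.77) higher, short of the 2-fold limit. Cd36, a fatty acid and thrombospondin receptor, was 5.02-fold lower (4.14 to 6.14), but its direction depended on the group: it was lower than in the Ackr4-positive barcodes and 2.50-fold (1.98 to 3.17) lower than in the remaining ones, and 28.0-fold (7.58 to 234) higher than in the Madcam1-positive ones, which had 2 Cd36 UMIs.

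Genes known from liver sinusoidal endothelium overlap with that list. Of 9, 5 were measured, with a median log2 ratio of 0.95, and Clec4g and F8 were at least 2-fold higher. Clec4g was compared only through the members, so its direction was fixed. F8, the gene of coagulation factor VIII, which endothelial cells make, stood at 2383 CPM against 645 CPM, 3.69-fold (3.44 to 3.97), and was found in 225 of 231 members with a median of 7 UMIs. Maf, a transcription factor gene of sinusoids, was 1.30-fold (1.18 to 1.43) higher. Gata4 had 19 UMIs, Fcgr2b 22, Oit3 1 and Dnase1l3 0 in the members, below the 50 CPM limit.

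Lysosomal genes leaned the same way. Of 15, 13 were measured, 3 (Ctsd, Lgmn and Hexa) were at least 2-fold higher, none was 2-fold lower, and the median log2 ratio was 0.95. Ctsd, the cathepsin D protease gene, stood at 1772 CPM against 660 CPM, 2.69-fold (2.49 to 2.90). Psap, Lamp2, Ctss and Ctsl were between 1.93-fold and 1.98-fold higher. By group, the lysosomal median was 0.81 against the Ackr4-positive, 0.79 against the remaining and 0.46 against the Madcam1-positive barcodes. Ctsd and Lgmn did not reach 2-fold against the Madcam1-positive ones. Genes of the endocytic machinery did not share the difference as a list, with 11 measured, none at 2-fold and a median of 0.13. Within it Cltc, the clathrin heavy chain gene, was 1.98-fold (1.75 to 2.23) and Dab2, a cargo adaptor gene, 1.68-fold (1.53 to 1.84) higher.

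Complement and clotting genes were higher too, with 4 of 9 measured genes at least 2-fold higher, C3, F8 and Thbd among them, none lower and a median log2 ratio of 0.79. C3, the central complement component, stood at 914 CPM against 367 CPM, 2.49-fold (2.24 to 2.76). Thbd, the thrombomodulin gene, was 2.79-fold (2.39 to 3.26) higher. By group, the median of this list was 1.26 against the Ackr4-positive and 0.95 against the remaining barcodes. Against the Madcam1-positive ones it was 0.38 (median of the gene intervals -0.012 to 0.79).

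Chemokines and cytokines were mixed. Of 9 measured, Ccl2 (a monocyte attractant) and Il33 (an alarmin) were at least 2-fold higher, and Ccl20 and Ackr3, both compared only through the other lymphatic barcodes, at least 2-fold lower. Il33 stood at 323 CPM against 104 CPM, 3.10-fold (2.58 to 3.74), and was found in 128 members. Ackr3, a scavenger of Cxcl12, had 3 UMIs in the members and was 25.9-fold (8.74 to 127) lower. Ccl20 had 0 UMIs in the members, at least 13.5-fold lower at the floor of 3 counts, but it was also at 0 in the Ackr4-positive barcodes and lay in 25 of the 607 other lymphatic ones, with 94 of its UMIs in the Madcam1-positive barcodes. Csf1, the macrophage growth factor gene, was 1.68-fold (1.48 to 1.90) higher.

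Genes known from the lymphatic floor divided. Itga2b, an integrin gene, stood at 701 CPM against 248 CPM, 2.83-fold (2.50 to 3.20), whereas Coch, with 0 UMIs in the members, was at least 21.6-fold lower, though also at 0 in the Ackr4-positive barcodes, and Glycam1 and Ccl20 were lower as given above. Bmp2 was level at 0.98-fold (0.86 to 1.12). Coch, Glycam1 and Ccl20 were under 50 CPM in the members and were compared only through the other lymphatic barcodes, so no median is given for this list.

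Matrix genes were mixed. Of 10 measured, Col4a1, Col4a2, Lamb1 and Fn1 were at least 2-fold lower and Tgfbi at least 2-fold higher, of which Lamb1 and Fn1 were compared only through the other lymphatic barcodes. Col4a1 and Col4a2, the basement membrane collagen IV genes, were 2.095-fold (1.70 to 2.61) and 2.29-fold (1.71 to 3.12) lower, and Lamb1, a laminin gene, was 5.34-fold (3.31 to 9.17) lower.

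Receptor genes for lymphatic growth factors had chosen neither group, and only their RNA was counted, not signalling. Flt4, which encodes the receptor for the lymphatic growth factor Vegfc, stood at 504 CPM against 221 CPM, 2.28-fold (1.98 to 2.61). Nrp2, its co-receptor gene, stood at 669 CPM against 280 CPM, 2.38-fold (2.12 to 2.69). Both were at least 2-fold higher than in the Ackr4-positive and the Madcam1-positive barcodes, but neither reached 2-fold against the remaining ones. Against all other lymphatic barcodes, Kdr was 1.84-fold (1.68 to 2.00) higher, while over the 6 measured genes of the Vegf and Tie list none reached 2-fold and the median was 0.0052. Of 4 measured valve and collecting vessel genes, Itga9, an integrin gene of lymphatic valves, was 2.42-fold (2.13 to 2.76) higher and Gja4, a connexin gene, 11.1-fold (4.66 to 34.8) lower.

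Transcription factors differed little, with 10 measured, none 2-fold higher, a median of 0.23 and Sox18 and Klf2 at least 2-fold lower. Sox18 was under 50 CPM in the members and was compared only through the other lymphatic barcodes, so its direction was fixed. Klf2, which responds to flow in endothelium, stood at 807 CPM against 1775 CPM, 2.20-fold (2.02 to 2.40) lower. Klf2 was 3.10-fold (2.84 to 3.38) lower than in the Ackr4-positive barcodes, 1.83-fold (1.65 to 2.02) lower than in the remaining ones and 2.01-fold (1.69 to 2.41) higher than in the Madcam1-positive ones. Of the other lists, antigen presentation and checkpoint genes had a median of 0.10 over 8 genes with Cd274, which encodes PD-L1, 2.57-fold (1.81 to 3.64) higher, adhesion genes 0.14 over 4 genes, sphingosine 1-phosphate genes 0.37 over 3 with Plpp3 at least 2-fold lower, hyaluronan genes 0.42 over 2, pan-endothelial genes 0.13 over 9, and immediate early and heat shock genes -0.048 over 14 with Ier2 at least 2-fold lower. Among these genes, Cd274 was compared only through the members and Plpp3 only through the other lymphatic barcodes, so their directions were fixed. The 3 genes known from Ptx3-type lymphatic cells were all below 50 CPM in both groups.

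The groups of other lymphatic barcodes did not stand at the same distance. Against the Ackr4-positive barcodes, 418 of 3768 genes (11.1%) were at least 2-fold higher in the members and 379 (10.1%) at least 2-fold lower. C3 was 17.0-fold (12.9 to 22.9), Itga2b 14.1-fold (10.5 to 19.2), Msr1 14.1-fold (10.1 to 20.3) and Il33 7.38-fold (5.35 to 10.41) higher in the members, while Prss23 was 99.1-fold (42.2 to 306), Fn1 40.2-fold (21.0 to 88.5) and Cd36 8.51-fold (7.01 to 10.42) lower. Stab2 was alike at 660 CPM and 605 CPM, a ratio of 1.09 (0.97 to 1.23).

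Against the Madcam1-positive barcodes, 288 of 3704 genes (7.78%) were at least 2-fold higher and 234 (6.32%) at least 2-fold lower. Here C3 (0.84-fold, 0.75 to 0.95), Itga2b (0.94-fold, 0.81 to 1.08) and Msr1 (0.75-fold, 0.64 to 0.88) were no higher in the members. Instead the members had more Stab2, 5.73-fold (4.23 to 7.92), and less Glycam1, 192-fold (139 to 273), Bmp2, 3.30-fold (2.85 to 3.83), and Cd74, an invariant chain gene of antigen presentation, 4.08-fold (3.31 to 5.05). Coch and Ccl20, at 0 in the members, were at least 76.6-fold and 63.2-fold lower. Rgs5, a pericyte gene, stood at 213 CPM in the Madcam1-positive barcodes and 6.22 CPM in the members, and its part in these differences was not tested.

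Against the remaining lymphatic barcodes, 174 of 3688 genes (4.72%) were at least 2-fold higher and 217 (5.88%) at least 2-fold lower. F8 was 3.06-fold (2.76 to 3.39), Msr1 3.48-fold (2.76 to 4.41) and Selenop 3.10-fold (2.90 to 3.31) higher. Thus F8 and Selenop were at least 2-fold higher in the members than in each of the 3 groups, whereas C3, Msr1, Itga2b and Il33 were so against the Ackr4-positive and the remaining barcodes.

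Against all 2914 other shared barcodes, the comparison that goes with the rule, 503 of 3733 genes (13.5%) were at least 2-fold higher and 383 (10.3%) at least 2-fold lower, with a median log2 ratio of 0.051. Scaling by the median ratio in place of total UMIs moved this median to -0.12 and turned the split to 412 higher and 508 lower. Clec1b had the highest ratio at 22.3-fold, followed by Meg3, Reln at 17.8-fold, Pcdh15, Pld5, Plek, Mt2, Cyp4b1 and Tpbgl, in which Tpbgl reached 10.4-fold. This comparison shares the members and 607 barcodes with the one against the other lymphatic barcodes.

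The gene lists against all other shared barcodes are given with both directions. Among high endothelial genes, Enpp2, which encodes the enzyme autotaxin, stood at 274 CPM in the members against 1153 CPM. Glycam1, Fut7, Ackr1, Sele and Selp had 37, 2, 7, 6 and 23 UMIs in the members, below 50 CPM, and were compared only because they were high elsewhere, so their shared direction carries nothing further. Among capillary genes, Cd300lg stood at 210 CPM against 553 CPM, while Rgcc and Gpihbp1 had 11 and 17 UMIs in the members and entered in the same way. Flt1 and Nrp1, Vegf receptor and co-receptor genes, had 48.5 CPM against 862 CPM and 16.2 CPM against 375 CPM. In the other direction, 7 of 10 complement and clotting genes were at least 2-fold higher and Vwf lower, and 8 of 13 lysosomal genes were higher and none lower. Of 10 transcription factor genes 6 were higher and Sox18 lower, and of 12 scavenger and lectin genes 6 were higher and Cd36 and Scarb1 lower. These counts carry the same limit in both directions. Clec4g, at 126 CPM against 11.9 CPM, and Foxc1 were compared only through the members. Sox18 and Vwf were under 50 CPM in the members and were compared only because they were high elsewhere. Ccl21a, a lymphatic chemokine gene, was lower, at 138 CPM against 2109 CPM, and as Ccl21a has near-identical copies its counts are uncertain.

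The members were not uniform. The 33 members with Mrc1 and no Marco UMI were as deep as the 198 with Marco, at medians of 3725 and 3338 UMIs, and had as much Lyve1, 3850 CPM against 3611 CPM. Mmrn1, which encodes a platelet and endothelial matrix protein, stood at 1324 CPM in them against 478 CPM in the members with Marco, 2.77-fold (2.27 to 3.37) higher, with UMIs in 30 of 33. Collagen IV genes were higher as well, Col4a1 4.30-fold (2.85 to 6.44) and Col4a2 5.14-fold (2.88 to 9.09), and so was Cd36, 3.94-fold (2.64 to 5.83). Itih5, a hyaluronan-binding protein gene, was 5.36-fold (2.68 to 10.68) higher and found in 11 of 33 against 12 of 198. Ptx3, a soluble pattern recognition gene, had all of its 12 UMIs in 4 members without Marco.

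Genes of the opposite pattern were Msr1, 3.95-fold (2.44 to 6.85) higher in the members with Marco, Thbd, 4.85-fold (2.74 to 9.48), Bmp2, 5.33-fold (2.77 to 11.78), and Mt2, 3.81-fold (2.55 to 5.93). Prox1 stood at 1543 CPM with Marco and 891 CPM without, but was found in 90.4% and 93.9% of barcodes. Ccl21a looked very unequal, with 106 of 111 UMIs in members without Marco, yet 98 of them came from 1 barcode. These are splits by a gene of the rule and are given as a description.

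**Figure D4:**
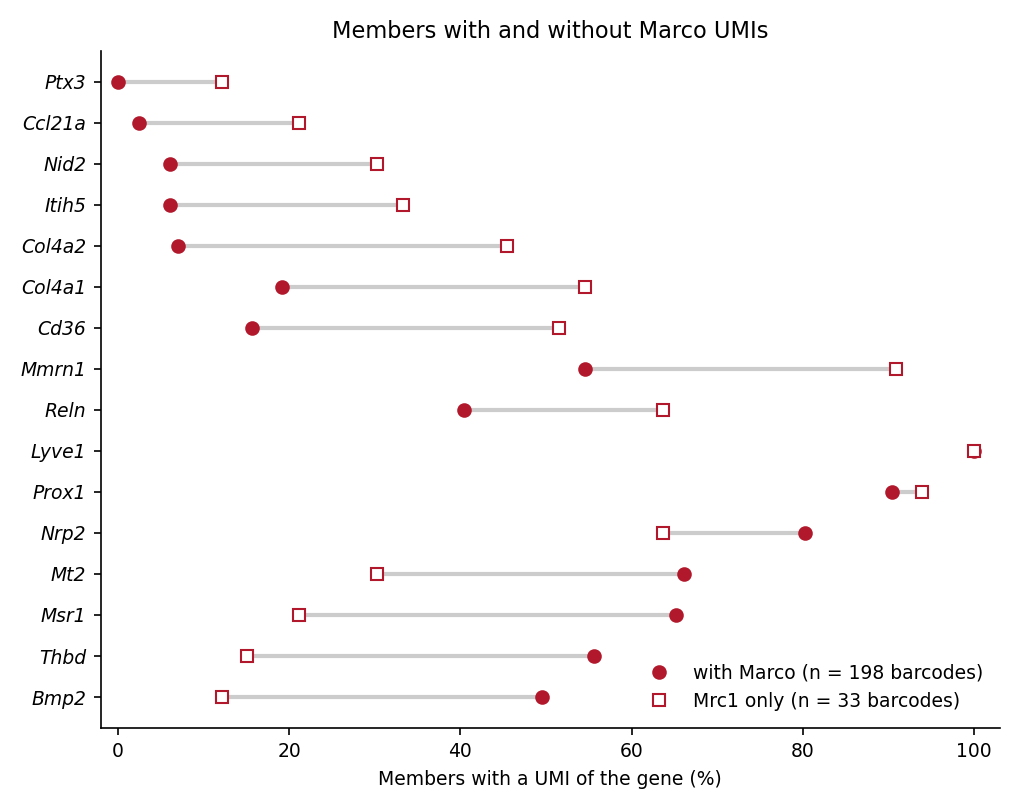
Percentage of members with at least 1 UMI of each gene (x axis), for the 198 members with Marco (filled circles) and the 33 with Mrc1 only (open squares), joined by grey lines. Mmrn1 and collagen IV genes were seen more often without Marco, Msr1, Thbd and Bmp2 more often with it, and Prox1 and Lyve1 about equally.

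By band of the rule, Ptx3 stood at 56.4 CPM in members with 2 or 3 UMIs of Marco and Mrc1, 40.3 CPM in those with 4 to 9 and 0 in those with 10 or more. Mmrn1 stood at 983 CPM, 919 CPM and 442 CPM across the same bands, whereas Msr1 stood at 201 CPM, 306 CPM and 637 CPM. Reln was 306 CPM, 395 CPM and 214 CPM across the 3 bands, and F8 was 1989 CPM, 2135 CPM and 2527 CPM. With a limit of 10 UMIs in place of 2, chosen after the data were seen, 138 members were left, and 237 genes were at least 2-fold higher and 282 at least 2-fold lower than in the other lymphatic barcodes.

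Clustering of the 3145 shared barcodes without the 5 genes of the rule put 226 of 231 members (97.8%) in 1 cluster. That cluster held 563 barcodes, 238 of them other lymphatic ones, and its leading genes included Marco, Mrc1, Msr1, Mmp9, Coch and Madcam1. The other 5 members lay in 3 clusters, 2 of them in the cluster led by Ackr4. The members therefore did not form a cluster of their own at this setting.

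The LApc and LApcL libraries gave a recount of the same strings. The members had 548362 UMIs in LApc and 590292 in LApcL, against 804316 in WT, with medians of 2340, 2528 and 3394 per barcode. Marco stood at 4849 CPM in LApc and 4952 CPM in LApcL, Reln at 241 CPM and 239 CPM, Prox1 at 1442 CPM and 1553 CPM, and Msr1 at 474 CPM and 486 CPM. Over genes at 50 CPM or more, 96.9% (LApc) and 97.4% (LApcL) lay within 1.5-fold of WT. Across genes with at least 20 UMIs, the squared differences between libraries were 0.752 (WT and LApc), 0.734 (WT and LApcL) and 0.789 (LApc and LApcL) of what independent counting gives, so the 3 sets of counts differed by less than the sampling noise and were counted as 1 sample.

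**Figure D5:**
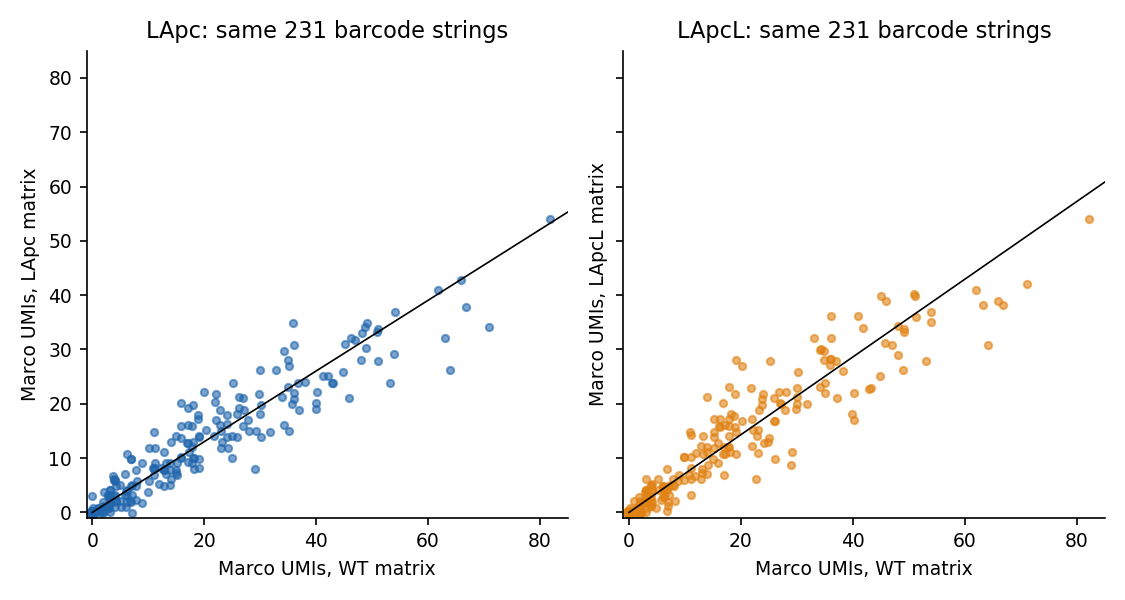
Marco UMIs of each of the 231 members in the WT library (x axes) against LApc (left) and LApcL (right), with a small seeded shift to part equal counts; the line has the slope of the summed UMIs. Members low in WT are low and members high in WT are high in both recounts, while the members with most Marco in WT lie mostly below the line in LApcL.

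Applied to the LApc counts, the rule found 206 shared barcodes, of which 187 were members, and applied to LApcL it found 222, of which 197 were members. Thus 81.0% (75.3 to 85.8) and 85.3% (80.0 to 89.6) of the members met the rule again. When each barcode was thinned to 500 UMIs, the shares were 45.0% in WT, 41.6% in LApc and 45.9% in LApcL, so the intervals of the 3 libraries overlapped at equal depth.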

How the data were processed

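Single-cell RNA-seq libraries of WT, LApc and LApcL organoids, 1 each, had been turned by the authors into matrices of UMI counts per gene and barcode on mm10. The labels name Cell Ranger 2.1.1 and the file headers 6.0.1, and which version made the deposited counts is unresolved. The members, comparison groups and gene lists were chosen with earlier results of these data known. Raw counts were summed per group of WT barcodes and scaled to CPM with exact 95% Poisson intervals, and ratios of CPM carry exact conditional binomial intervals, all for counting error only. Genes at 50 CPM or more in 1 group were compared on log2(CPM + 1). The genes named were the 15 highest and 10 lowest against the other lymphatic barcodes and the 10 highest against all other shared barcodes, at 100 CPM or more in 1 group, leaving out mitochondrial genes and the rule's genes. Some of the genes so chosen, and some list members, are not reported here. Gene positions are those of GENCODE vM21. No barcodes were left out as doublets, because Scrublet's own threshold marked 1 of 6217 barcodes and so did not work. With 1 library per genotype no test was made. The steps were checked on simulated counts and run in Python 3.11.15 with numpy 2.4.6, scipy 1.17.1, pandas 2.3.3, scanpy 1.11.5 and matplotlib 3.10.9. Alternatives covered the limits of the rule, the definition of the other lymphatic barcodes, depth, scaling, pseudocount, gene minimum, doublets and the library counted.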

Additional observations from a re-analysis of the deposited data

Results flagged for a closer look

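The counts of the members' barcodes in the LApc and LApcL libraries stood outside the comparisons, which used WT counts. Marco was at 4849 CPM in LApc and 4952 CPM in LApcL at these barcodes, against 0.145 CPM and 0.278 CPM in the barcodes of those libraries that were not shared.

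Outside the shared set, 4 WT barcodes met the other criteria of the rule, and none did in LApc or LApcL. These 4 had a median of 80994.5 UMIs, with Epcam at 1475 CPM, Prox1 at 3.70 CPM and Marco at 11.1 CPM, so they carried an epithelial marker and little of the lymphatic ones.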

How the results depend on the processing

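No paired analysis was possible because each genotype had 1 library and no result came from a test, and leaving out a replicate was not possible for the same reason. Limits of 1 or 4 UMIs of Marco and Mrc1, a mitochondrial limit of 10%, leaving out 12 members by Scrublet rank or using the LApc or LApcL counts gave 183 to 268 members. The 12 members were among the 309 WT barcodes with the highest Scrublet scores. Applying the other criteria to WT barcodes not in all 3 libraries, an alternative chosen after the data were seen, gave 4. Thinned to 1000 UMIs, the share of members with Prox1 was 65.0% in place of 90.9%. With no minimum level, 1338 genes were at least 2-fold higher and 2173 lower than in the other lymphatic barcodes, with 200 CPM as the minimum 79 and 55, and thinned 330 and 402. Against all other shared barcodes, no minimum gave 1702 higher and 2408 lower, and 200 CPM gave 186 and 128. Thinned to 500 UMIs, 41.6% of members met the rule again in LApc and 45.9% in LApcL. The scavenger and lectin list kept its direction under all alternatives run for it, with medians from 0.58 to 0.85. Of the single-gene values, 393 moved by less than their counting interval and 77 by more, and none changed direction. The 393 include 35 values with no minimum and 35 with 200 CPM as the minimum. A change of the minimum could not move these ratios, so they say nothing about stability. The moves were uneven, with 14 of 25 values moved when the other lymphatic barcodes had to hold at least 3 of the 5 genes and 15 of 35 under a pseudocount of 10 CPM. Depth limited the genes with few UMIs, such as Igfbp5 with 1 UMI in the members.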
